A study of Homo sapiens with 9 samples.

Results

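The zinc finger genes of chromosome 19 were examined in the human hepatocellular carcinoma line Huh-7 and in 2 knockout lines of it. The members were taken as all protein-coding genes on chromosome 19 whose symbol is ZNF followed by digits alone, which gave 240 of the 19942 protein-coding genes in the count table and of its 60664 genes in all. Of these 240, 212 passed the filter on low counts and were tested, and 28 did not. Most human genes of this kind encode C2H2 zinc finger proteins, in which a row of small zinc-binding fingers reads the DNA sequence. Many of them also carry a KRAB domain, which recruits TRIM28 and through it the histone methyltransferase SETDB1, and this machinery is best known for silencing transposable elements. The genes arose by tandem duplication and lie in clusters along both arms of chromosome 19, so neighbours often share long stretches of sequence.

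The study sequenced mRNA from 3 Huh-7 lines, with 3 libraries each, to ask what the vault RNAs vtRNA1-1 and vtRNA1-2, small noncoding RNAs, do in these cells. WT was the unedited line. In 1-1 KO the VTRNA1-1 gene, and in 1-2 KO the VTRNA1-2 gene, had been knocked out with CRISPR/Cas9, and all 3 lines were grown in complete medium. WT and 1-1 KO came from another laboratory, whereas 1-2 KO was a single cell clone made from WT, so that each knockout stands for 1 line and a difference between lines cannot be told apart from a difference between clones. The p-values below measure only the spread between the libraries of a line. The libraries held 32384469 to 41782387 counts. Neither deleted gene could be checked in the count table, as every library showed 0 counts for VTRNA1-2 and only WT replicate 1 showed any for VTRNA1-1, a single 1. The study assessed the vault RNA levels of the sequenced lines by northern blot. All 9 hepatocyte markers looked at were detected in each line, and their summed level was 15010 to 15956 CPM (counts scaled to a common library size) in WT, 31192 to 32134 CPM in 1-1 KO and 21201 to 23228 CPM in 1-2 KO. Of 8 markers of blood, endothelium and fibroblasts, 5 in WT, 6 in 1-1 KO and 7 in 1-2 KO exceeded 3 counts in at least 1 library. Their sum was 160 to 172, 215 to 225 and 68.3 to 73.3 CPM in the same order, most of it from LUM, whereas CD3E, VWF, CDH5 and DCN had at most 7 counts in any library. The part of these differences in the results below was not tested.

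The promoters of 5 members are shown first, because 3 of them belong to nearby 19p12 genes that share much of their sequence and were all lower in 1-1 KO (ZNF486, ZNF626 and ZNF93), 1 belongs to the member with the largest fall in 1-2 KO (ZNF415) and 1 to a member that moved in opposite directions in the 2 knockouts (ZNF69). Each sequence is from RefSeq on GRCh38.p14, runs 5′ to 3′ on the strand of the gene from 250 bases before its start to 50 after it, and has each CG dinucleotide in capitals.
ZNF486, chr19:20166964-20167263, plus strand: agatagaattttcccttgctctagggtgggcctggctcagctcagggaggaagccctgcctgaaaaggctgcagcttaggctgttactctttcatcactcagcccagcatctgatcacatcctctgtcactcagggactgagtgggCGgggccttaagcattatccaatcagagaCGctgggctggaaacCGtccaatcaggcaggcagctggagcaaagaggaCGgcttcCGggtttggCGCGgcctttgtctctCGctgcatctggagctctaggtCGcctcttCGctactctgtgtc
ZNF626, chr19:20661522-20661821, minus strand: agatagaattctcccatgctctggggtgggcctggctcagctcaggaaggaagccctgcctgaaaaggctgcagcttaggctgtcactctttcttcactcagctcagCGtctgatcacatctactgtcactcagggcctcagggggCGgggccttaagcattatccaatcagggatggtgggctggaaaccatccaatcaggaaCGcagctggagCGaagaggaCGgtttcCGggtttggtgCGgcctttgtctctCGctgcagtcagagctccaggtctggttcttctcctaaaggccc
ZNF93, chr19:19900696-19900995, plus strand: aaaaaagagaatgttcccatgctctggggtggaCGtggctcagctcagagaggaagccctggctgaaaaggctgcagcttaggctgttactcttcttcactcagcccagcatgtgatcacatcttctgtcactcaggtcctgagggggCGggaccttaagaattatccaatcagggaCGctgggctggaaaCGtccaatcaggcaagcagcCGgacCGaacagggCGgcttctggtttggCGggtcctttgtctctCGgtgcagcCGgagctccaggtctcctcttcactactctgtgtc
ZNF415, chr19:53132861-53133160, minus strand: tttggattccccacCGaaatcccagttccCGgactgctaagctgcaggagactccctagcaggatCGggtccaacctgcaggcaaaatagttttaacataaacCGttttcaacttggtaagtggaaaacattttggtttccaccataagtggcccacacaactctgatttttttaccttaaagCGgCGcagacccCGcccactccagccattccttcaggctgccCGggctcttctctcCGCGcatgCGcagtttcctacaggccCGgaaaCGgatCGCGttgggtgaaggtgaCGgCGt
ZNF69, chr19:11887532-11887831, plus strand: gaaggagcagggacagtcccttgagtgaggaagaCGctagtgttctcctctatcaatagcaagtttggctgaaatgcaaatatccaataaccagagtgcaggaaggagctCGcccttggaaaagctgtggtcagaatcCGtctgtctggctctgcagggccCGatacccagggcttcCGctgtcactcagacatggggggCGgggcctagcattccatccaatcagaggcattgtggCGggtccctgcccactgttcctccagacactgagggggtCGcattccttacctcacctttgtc

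After global alignment, the promoters of ZNF486 and ZNF626 were 87.5% identical, those of ZNF486 and ZNF93 87.1% and those of ZNF626 and ZNF93 82.6%. Among the 231 pairs of the 22 named members with a sequence, the median identity was 50.6%, and only 4 pairs reached 60% or more. The fourth such pair was ZNF844 and ZNF69, 2 members of 19p13.2, at 60.2%. ZNF486, ZNF626 and ZNF93 were the only 19p12 members among the 22, and each was named for its fall in 1-1 KO. Promoters of 19p12 members that rose or were not called were not aligned. Whether the likeness goes with the fall or is common to the cluster was therefore not tested. Over the 210 members with a promoter sequence, the median number of CG dinucleotides was 20 in the 300 bases, against 14 over all 27305 promoters of the table. The letters CCGGAA, the core bound by ETS factors, occurred on either strand in 54.8% of the members' promoters and in 17.6% of all promoters. CCAAT, the NF-Y box, occurred in 52.9% against 35.7%. TATAAA, the TATA box, occurred in 1.90% of the members' promoters against 12.0% of all. Matches of different motifs may overlap, and a match is a description of the sequence and not a bound site.

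The members as a group stood at low levels. Per kilobase of exon, the median level of the 212 tested members was 0.738 CPM in WT, 0.973 CPM in 1-1 KO and 0.829 CPM in 1-2 KO. The 741 other tested protein-coding genes of chromosome 19 had medians of 4.14, 4.99 and 4.64 CPM per kilobase, and the 204 tested ZNF genes of the other chromosomes had 1.67, 1.62 and 1.90. The highest members in WT were ZNF146, whose protein consists of little more than its zinc fingers, at 16.3 ± 0.0511 CPM per kilobase (SD, n = 3), and ZNF787 at 12.7 ± 2.50. ZNF507 followed at 7.24 ± 0.279, ZNF581 at 6.30 ± 1.06 and ZNF317 at 5.92 ± 0.282 CPM per kilobase, and of these 3 neither ZNF507 and ZNF581 nor ZNF581 and ZNF317 differed by more than the larger SD of the pair. The encoded proteins held 1 to 39 C2H2 fingers by their sequence pattern, with a median of 12, and 170 to 1379 residues. The GC content of the longest transcript ran from 33.9% to 70.9%, with a median of 42.4%, and was lowest in 19p12 at a median of 36.8%.

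Counting all 240 members together, summed expression was higher in both knockouts. The sum was 1450, 1449 and 1444 CPM in the WT libraries, 1793, 1783 and 1853 CPM in 1-1 KO and 1617, 1609 and 1569 CPM in 1-2 KO. The 3 lines did not overlap, with 1-1 KO highest and WT lowest. The mean of 1-1 KO was 1.25 times and that of 1-2 KO 1.10 times the WT mean. No test was run on this sum.

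In 1-1 KO, zinc finger genes rose far more often than they fell. Of the 212 tested members, 142 were higher than in WT, 10 were lower and 60 did not pass the test (edgeR quasi-likelihood test, Benjamini-Hochberg adjusted p under 0.05 over all 17207 tested genes). That is 67.0% of the members higher and 4.72% lower, where 32.5% of all tested genes were higher and 30.9% lower. The median change of the members was 0.41 on the log2 scale, or 1.33-fold, and most changes were small, with the 25th and 75th percentiles of the members at 0.21 and 0.65. The median of all tested genes was 0.01. Other protein-coding genes of chromosome 19 lay between, with 417 of 741 higher, 89 lower and a median of 0.30, so the shift was not confined to zinc finger genes. The ZNF genes of the other chromosomes showed no such excess, with 58 of 204 higher, 63 lower and a median of -0.06.

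In 1-2 KO the share of members that rose lay near the background, while few fell. There, 65 of the 212 were higher than in WT and 15 lower, or 30.7% and 7.08%, where 28.2% of all tested genes were higher and 26.2% lower. The median change was 0.16 on the log2 scale, against 0.13 for the other protein-coding genes of chromosome 19, of which 280 were higher and 133 lower. The ZNF genes of the other chromosomes had a median of 0.12, with 80 higher and 24 lower. Compared directly with 1-1 KO, 113 members were lower in 1-2 KO and 16 higher, with a median difference of -0.28. Of all tested genes, 32.2% were lower and 33.1% higher. The other protein-coding genes of chromosome 19 had 340 of 741 lower, 141 higher and a median of -0.15, so this shift was not confined to zinc finger genes. The ZNF genes of the other chromosomes had 44 of 204 lower, 80 higher and a median of 0.10. Both knockouts were compared with the same 3 WT libraries, so their changes against WT are not independent of each other.

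By position, the shift in 1-1 KO reached both arms of the chromosome. The members fell into 16 bands, 7 of which held at least 10 members. In 19p13.2, with 38 members, 27 of the 33 tested members rose in 1-1 KO and 0 fell, with a median of 0.58. Their summed CPM went from 160 ± 5.40 in WT to 237 ± 7.68 in 1-1 KO (SD, n = 3), or 1.48 times, the highest ratio among the 7 bands. In 1-2 KO the same band had 5 members higher and 3 lower, a median of 0.05 and a sum of 171 ± 3.58 CPM. The shares higher were 81.8% in 1-1 KO and 15.2% in 1-2 KO, where 32.5% and 28.2% of all tested genes were. The members lower in 1-2 KO made up 9.09%, against 26.2% of all tested genes. The other protein-coding genes of 19p13.2 had a median of 0.37 in 1-1 KO and 0.19 in 1-2 KO over 81 tested genes. Of these 81, 52 were higher and 4 lower in 1-1 KO, and 34 higher and 13 lower in 1-2 KO.

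The 19p12 cluster, which holds almost nothing but zinc finger genes, was mixed. Of its 33 members, 24 were tested, and 11 rose and 4 fell in 1-1 KO, with a median of 0.20, while 9 rose and 1 fell in 1-2 KO, with a median of 0.17. That is 45.8% and 37.5% higher, where 32.5% and 28.2% of all tested genes were. The summed level of the cluster was 206 ± 3.83 CPM in WT, 238 ± 11.1 in 1-1 KO and 232 ± 8.28 in 1-2 KO. The band holds only 2 other protein-coding genes and neither was tested, so the members had no comparison within the band. ZNF91, a large 19p12 gene whose product is known to silence SVA retrotransposons, was at 23.6 ± 0.981 CPM in WT, 27.6 ± 1.63 in 1-1 KO and 26.9 ± 0.828 in 1-2 KO. It was named after its values were seen. Its log2 changes were 0.23 (SE 0.06, edgeR adjusted p = 0.00287) and 0.19 (SE 0.06, edgeR adjusted p = 0.0122), and without WT replicate 2 the latter was 0.16 (edgeR adjusted p = 0.0571). Relative to the 30 nearest tested genes that are not members, all of them in other bands, the values were -0.01 and 0.00 and neither passed the test (edgeR adjusted p = 0.855 and 0.971).

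On the long arm, 19q13.12 held 24 members and 19q13.31 held 23. In 19q13.12, 13 of 22 tested members rose and 1 fell in 1-1 KO (median 0.39), and 12 rose and 0 fell in 1-2 KO (median 0.33), or 59.1% and 54.5% higher where 32.5% and 28.2% of all tested genes were. Of the 38 other tested genes of that band, 13 were higher and 4 lower in 1-1 KO and 16 and 3 in 1-2 KO. In 19q13.31, 16 of 22 rose and 0 fell in 1-1 KO (median 0.50), against 5 and 0 in 1-2 KO (median 0.13), so that 72.7% were higher in 1-1 KO but 22.7% in 1-2 KO, under the 28.2% of all tested genes. The 10 other tested genes of 19q13.31 had 5 higher and 1 lower in 1-1 KO (median 0.21) and 1 higher and 4 lower in 1-2 KO (median -0.07). When 1-2 KO was set directly against 1-1 KO, 13 of the 22 members of 19q13.31 were lower and 0 higher, whereas in 19q13.12 3 were lower and 2 higher. In 19q13.31 that is 59.1% lower, where 32.2% of all tested genes were lower and 33.1% higher. Of the 10 other tested genes of 19q13.31, 6 were lower and 2 higher, so this shift was not confined to the members. The 38 other tested genes of 19q13.12 had 10 lower and 13 higher.

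The distal clusters from 19q13.41 to 19q13.43 held 96 members, 88 of them tested. In 1-1 KO 62 rose and 2 fell, with a median of 0.40, while the 59 other tested genes of the same bands had 23 higher, 12 lower and a median of 0.07. For the members that is 70.5% higher and 2.27% lower, where 32.5% of all tested genes were higher and 30.9% lower. In 1-2 KO the figures were 27 higher, 8 lower and a median of 0.13 for the members against 16, 11 and 0.15 for the other genes. That is 30.7% of the members higher and 9.09% lower, where 28.2% of all tested genes were higher and 26.2% lower. Within this stretch, 22 of 28 tested members of 19q13.41 rose in 1-1 KO, 10 of 16 in 19q13.42 and 30 of 44 in 19q13.43, the last being the largest cluster with 50 members. Of the other tested genes of these bands, 1 of 6, 15 of 34 and 7 of 19 were higher in the same order. The members of 19q13.41 had a median of -0.06 in 1-2 KO, with 2 higher and 3 lower, and their sum there was 177 ± 7.54 CPM against 184 ± 4.81 in WT and 228 ± 6.13 in 1-1 KO. When the changes were taken relative to the median of the 30 nearest tested chromosome 19 genes that are not members, 92 members were higher and 25 lower in 1-1 KO, and 39 higher and 34 lower in 1-2 KO. That local median ran from -0.01 to 0.69 across the members in 1-1 KO.

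Between WT and either knockout, no member was switched on or off by the rule used. A member was called off in a line when each of its libraries had at most 3 counts and on when each had at least 10. In WT 199 members were on, 23 off and 18 between, in 1-1 KO 208, 20 and 12, and in 1-2 KO 204, 22 and 14. From WT to 1-1 KO, 0 members went from off to on, where 0.264% of the 35212 genes with any count did, and 0 went from on to off, where 0.0738% did. From WT to 1-2 KO the member counts were again 0 and 0, against 0.542% and 0.0398% of all genes. Of the 240 members 197 were on in all 3 lines and 17 off in all 3, and 6 of these had 0 counts in all 9 libraries (ZNF729, ZNF99, ZNF728, ZNF677, ZNF835 and ZNF135). Of the 17, 7 lay in 19p12. The remaining changes of state crossed only 1 of the 2 limits. From WT to 1-1 KO, 11 members passed from between to on, 5 from off to between, 2 from on to between and 2 from between to off.

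Between the 2 knockouts, 1 member met the rule. ZNF676 of 19p12 had 1 count in each 1-1 KO library, 6, 8 and 9 in WT, and 10, 17 and 12 in 1-2 KO. It was therefore off in 1-1 KO, between in WT and on in 1-2 KO, a switch seen in 0.406% of all genes in that direction and in 0.145% in the other, in which 0 members switched. Its log2 difference between 1-2 KO and 1-1 KO was 3.73 (SE 0.58, edgeR adjusted p = 5.79e-05). All 9 of its counts were low and the call was absent when on required at least 30 counts. ZNF701 of 19q13.41 came close to the opposite switch, with 18, 17 and 14 counts in 1-1 KO, 5, 5 and 4 in WT, and 4, 3 and 0 in 1-2 KO. Without 1-2 KO replicate 1 it would have counted as switched off from 1-1 KO to 1-2 KO, as would ZNF878, with 9, 11 and 19 against 1, 1 and 1 counts, without 1-1 KO replicate 1.

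The largest rise in 1-1 KO was that of ZNF114, a gene of 19q13.33. Its counts were 12, 8 and 6 in WT, 114, 129 and 117 in 1-1 KO and 21, 18 and 22 in 1-2 KO. All 1-1 KO libraries lay far above the rest and all 1-2 KO libraries above all of WT. Its log2 change was 3.60 in 1-1 KO (SE 0.19, 12.2-fold, edgeR adjusted p = 1.44e-09) and 1.07 in 1-2 KO (SE 0.26, edgeR adjusted p = 0.00335), and the difference between the knockouts was -2.54 (SE 0.16, edgeR adjusted p = 6.82e-09). ZNF610 of 19q13.41 followed, with 7, 18 and 14 counts in WT, 54, 68 and 55 in 1-1 KO and 15, 13 and 6 in 1-2 KO. Only 1-1 KO stood apart from the other lines, at a log2 change of 1.99 (SE 0.30, edgeR adjusted p = 4.86e-05), while 1-2 KO was at -0.37 (SE 0.41, edgeR adjusted p = 0.467).

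Among members whose mean reached 1 CPM in WT or in 1-1 KO, ZNF554, ZNF358, ZNF223 and ZNF563 were next in size. Below that level ZNF491, ZNF846, ZNF701, ZNF439 and ZNF625, named after their values were seen, rose by 1.46 to 1.84. ZNF554 (19p13.3) had 26, 18 and 11 counts in WT, 61, 54 and 51 in 1-1 KO and 23, 33 and 17 in 1-2 KO, with log2 changes of 1.41 (SE 0.25, edgeR adjusted p = 0.000218) and 0.25 (SE 0.29, edgeR adjusted p = 0.489). ZNF223 (19q13.31) had 66, 36 and 35 counts in WT, 121, 128 and 115 in 1-1 KO and 60, 60 and 62 in 1-2 KO. It rose by 1.23 in 1-1 KO (SE 0.17, edgeR adjusted p = 1.99e-05), and its 1-2 KO value of 0.25 passed the test only without WT replicate 1, at 0.53. ZNF358, a GC-rich gene of 19p13.2, is described with the other GC-rich members below.

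The members that fell in 1-1 KO were few, and 4 of the 10 lay in 19p12. ZNF486 had 112, 94 and 76 counts in WT, 1, 23 and 18 in 1-1 KO and 131, 138 and 154 in 1-2 KO. The 1-1 KO libraries were all lower than the other 6, and replicate 1 stood apart from the other 2. The log2 change was -2.93 (SE 0.36, edgeR adjusted p = 6.89e-06) and was -2.37 without that library (edgeR adjusted p = 4.97e-07). In 1-2 KO it was 0.43 (SE 0.25, edgeR adjusted p = 0.171) and passed the test without 1-1 KO replicate 1, at 0.42 (edgeR adjusted p = 0.0143), and the difference between the knockouts was 3.36 (SE 0.35, edgeR adjusted p = 9.53e-07).

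ZNF626 and ZNF93, whose promoters resemble that of ZNF486, fell less. ZNF626 had 66, 66 and 46 counts in WT, 43, 39 and 31 in 1-1 KO and 55, 50 and 64 in 1-2 KO, with a log2 change of -0.84 in 1-1 KO (SE 0.17, edgeR adjusted p = 0.000620) and -0.24 in 1-2 KO (SE 0.16, edgeR adjusted p = 0.232). Relative to the 30 nearest genes that are not members, the latter was -0.42 and passed the test (edgeR adjusted p = 0.0388). ZNF93, known as a repressor of LINE-1 retrotransposons, was at 14.7 ± 0.905 CPM in WT, 12.7 ± 0.208 in 1-1 KO and 12.6 ± 0.521 in 1-2 KO. It fell by 0.21 in 1-1 KO (SE 0.07, edgeR adjusted p = 0.0109) and by 0.22 in 1-2 KO (SE 0.07, edgeR adjusted p = 0.00965), and without WT replicate 2 the former was -0.17 and missed the test (edgeR adjusted p = 0.0538). The fourth 19p12 member that fell in 1-1 KO was ZNF676. Reads from near-identical paralogs of this cluster could be assigned to the wrong gene or left out, since the handling of reads with several matches was not given in the sources used here.

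In 19q13.42, ZNF415 fell in both knockouts. It had 111, 114 and 98 counts in WT, 39, 23 and 35 in 1-1 KO and 21, 25 and 20 in 1-2 KO, so that WT stood clear of both. The log2 changes were -1.93 (SE 0.17, edgeR adjusted p = 2.34e-07) and -2.46 (SE 0.18, edgeR adjusted p = 5.18e-08). The difference between the knockouts, -0.53 (edgeR adjusted p = 0.0494), was at the threshold and missed it under 13 of the 18 alternatives. The next 2 members along the chromosome were ZNF347, which overlaps ZNF415, and ZNF665. ZNF665 had 25, 16 and 16 counts in WT, 11, 5 and 11 in 1-1 KO and 5, 11 and 10 in 1-2 KO, with log2 changes of -1.27 (SE 0.36, edgeR adjusted p = 0.00718) and -1.29 (SE 0.36, edgeR adjusted p = 0.00804). ZNF347 was at 3.65 ± 0.597 CPM in WT, 3.26 ± 0.399 in 1-1 KO and 2.43 ± 0.173 in 1-2 KO, with -0.17 in 1-1 KO (SE 0.14, edgeR adjusted p = 0.287) and -0.59 in 1-2 KO (SE 0.14, edgeR adjusted p = 0.00255). The 3 genes lie next to each other on the minus strand.

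The remaining falls in 1-1 KO were smaller. ZNF333 (19p13.12) went from 3.41 ± 0.0974 to 2.32 ± 0.0550 CPM, a log2 change of -0.55 (SE 0.11, edgeR adjusted p = 0.000636), and was 0.16 in 1-2 KO (edgeR adjusted p = 0.218). ZNF146, the member with the highest level per kilobase in WT, went from 67.4 ± 0.212 to 54.5 ± 1.29 CPM, or -0.31 (SE 0.04, edgeR adjusted p = 3.64e-06), and stood at 69.4 ± 1.40 CPM in 1-2 KO. ZNF473, which encodes a factor in the processing of histone mRNAs, was at -0.16 (SE 0.05, edgeR adjusted p = 0.00906), and ZNF546 at -0.53 (SE 0.22, edgeR adjusted p = 0.0468). The call for ZNF546 was lost under 13 of the 18 alternatives, among them without WT replicate 3, where it was -0.33.

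In 1-2 KO the largest rises outside the GC-rich members were those of ZNF175 and ZNF568. ZNF175 (19q13.41) had 90, 83 and 57 counts in WT, 92, 88 and 91 in 1-1 KO and 223, 163 and 192 in 1-2 KO. WT and 1-1 KO overlapped and 1-2 KO stood above both, at a log2 change of 1.17 (SE 0.13, edgeR adjusted p = 2.61e-06) and of 1.12 relative to 1-1 KO (SE 0.12, edgeR adjusted p = 2.09e-06). ZNF568 (19q13.12), whose mouse counterpart is known as a repressor in early development, had 91, 73 and 62 counts in WT, 135, 118 and 126 in 1-1 KO and 193, 166 and 184 in 1-2 KO. The 3 lines did not overlap, and the log2 changes were 0.56 in 1-1 KO (SE 0.12, edgeR adjusted p = 0.000747) and 1.10 in 1-2 KO (SE 0.11, edgeR adjusted p = 1.22e-06). ZNF773 and ZNF583, both of 19q13.43, rose by 0.83 (SE 0.19, edgeR adjusted p = 0.00196) and 0.82 (SE 0.14, edgeR adjusted p = 0.000157) in 1-2 KO, and in 1-1 KO stood at 0.88 (edgeR adjusted p = 0.00101) and 0.09 (edgeR adjusted p = 0.596).

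Among members whose mean reached 1 CPM in WT or in 1-2 KO, which leaves out ZNF665, the falls in 1-2 KO next in size to that of ZNF415 were those of ZNF844, ZNF69, ZNF57 and ZNF347. ZNF844 (19p13.2) had 136, 133 and 95 counts in WT, 156, 111 and 154 in 1-1 KO and 84, 76 and 83 in 1-2 KO, with a log2 change of -0.74 in 1-2 KO (SE 0.14, edgeR adjusted p = 0.000498) and 0.02 in 1-1 KO (SE 0.13, edgeR adjusted p = 0.894). ZNF57 (19p13.3) had 80, 82 and 56 counts in WT, 100, 72 and 84 in 1-1 KO and 47, 48 and 59 in 1-2 KO, with -0.66 in 1-2 KO (SE 0.17, edgeR adjusted p = 0.00363) and 0.04 in 1-1 KO (SE 0.15, edgeR adjusted p = 0.820). Set directly against each other, both genes were lower in 1-2 KO than in 1-1 KO, ZNF844 by -0.77 (edgeR adjusted p = 0.000246) and ZNF57 by -0.71 (edgeR adjusted p = 0.00152). Relative to the 30 nearest genes that are not members, the difference of ZNF57 was -0.18 and missed the test (edgeR adjusted p = 0.341).

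Moving in opposite directions against WT were 6 members, namely ZNF69, ZNF563, ZNF77, ZNF614, ZNF274 and ZNF544, of which only ZNF69 and ZNF563 were named by rule and the others after their values were seen. ZNF69 had 146, 143 and 121 counts in WT, 323, 286 and 342 in 1-1 KO and 100, 96 and 93 in 1-2 KO. It rose by 1.02 in 1-1 KO (SE 0.09, edgeR adjusted p = 3.79e-07) and stood at -0.67 in 1-2 KO (SE 0.11, edgeR adjusted p = 0.000102), with no overlap between any lines once scaled. ZNF563, which like ZNF69 lies in 19p13.2, had 41, 42 and 29 counts in WT, 89, 102 and 93 in 1-1 KO and 32, 34 and 22 in 1-2 KO. Its change was 1.15 in 1-1 KO (SE 0.16, edgeR adjusted p = 2.53e-05) and -0.51 in 1-2 KO (SE 0.20, edgeR adjusted p = 0.0396), and the latter call was lost under 10 of the 18 alternatives, among them without WT replicate 1 or 2, without 1-1 KO replicate 3 and without 1-2 KO replicate 1 or 3 (edgeR adjusted p between 0.0514 and 0.175 in those 5).

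ZNF274 is the zinc finger protein known for bringing SETDB1 and the H3K9me3 mark to the ends of zinc finger genes. It had 1722, 1496 and 1287 counts in WT, 1932, 1900 and 2005 in 1-1 KO and 1577, 1395 and 1392 in 1-2 KO. In CPM this was 41.3 ± 1.75, 47.0 ± 1.88 and 35.7 ± 1.48, with log2 changes of 0.19 (SE 0.05, edgeR adjusted p = 0.00436) and -0.21 (SE 0.05, edgeR adjusted p = 0.00251). Its neighbour in 19q13.43, ZNF544, was at 0.33 (SE 0.07, edgeR adjusted p = 0.000738) and -0.49 (SE 0.07, edgeR adjusted p = 4.95e-05). ZNF77 was at 0.43 and -0.44 (edgeR adjusted p = 0.00983 and 0.0170) and ZNF614 at 0.31 and -0.24 (edgeR adjusted p = 0.00174 and 0.0131). The 1-2 KO call of ZNF77 was lost without WT replicate 2 or without 1-2 KO replicate 1, at -0.37 and -0.38, and that of ZNF614 without WT replicate 1, at -0.20. Both calls of ZNF77 were lost with DESeq2, at 0.42 and -0.45, and relative to the 30 nearest genes that are not members, where its values were 0.08 and -0.26 (edgeR adjusted p = 0.649 and 0.136).

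The cofactors through which KRAB zinc finger proteins act did not move as a group. SETDB1, HDAC1 and PPHLN1 were lower in both knockouts, while ATF7IP, CHD3, DNMT1, DNMT3A, DNMT3B and UHRF1 were higher in both. Of the 26 genes listed for KRAB corepression, H3K9 methylation, HP1 proteins and DNA methylation, 25 were tested. In 1-1 KO 8 were higher and 8 lower (median -0.00), where 32.5% of all tested genes were higher and 30.9% lower. In 1-2 KO 11 were higher and 7 lower (median 0.04), where 28.2% of all tested genes were higher and 26.2% lower. The shares of the list thus lay near the background in 1-1 KO, while in 1-2 KO the share that rose lay above it. SETDB1, the H3K9 methyltransferase that TRIM28 recruits, was at 53.2 ± 1.84 CPM in WT, 30.9 ± 1.07 in 1-1 KO and 38.7 ± 2.14 in 1-2 KO. Its log2 changes were -0.78 (SE 0.05, edgeR adjusted p = 8.89e-09) and -0.46 (SE 0.05, edgeR adjusted p = 2.38e-06). TRIM28 itself was at 477 ± 24.5, 468 ± 12.8 and 555 ± 15.2 CPM, with -0.03 in 1-1 KO (SE 0.04, edgeR adjusted p = 0.603) and 0.22 in 1-2 KO (SE 0.04, edgeR adjusted p = 4.63e-04). Relative to the 30 nearest genes that are not members, TRIM28, which also lies on chromosome 19, was at -0.14 in 1-1 KO and passed the test (edgeR adjusted p = 0.0102), and at 0.07 in 1-2 KO and did not (edgeR adjusted p = 0.157). DNMT1 and UHRF1 lie on chromosome 19 as well. With this offset, which acts only on chromosome 19 genes, 6 of the 25 tested genes of the list were higher and 10 lower in 1-1 KO. In 1-2 KO 9 were higher and 7 lower. The imprinting regulator ZFP57 had at most 3 counts in any library and was not tested. Among the others, named after their values were seen, CHD3, a subunit of the NuRD complex, rose by 0.81 and 0.87 (edgeR adjusted p = 1.81e-09 and 9.77e-10), and SUV39H1, another H3K9 methyltransferase, was at -0.58 in 1-1 KO (edgeR adjusted p = 5.15e-08) and -0.03 in 1-2 KO (edgeR adjusted p = 0.556). Also named after their values were seen, HDAC1 was at -0.20 in 1-1 KO and -0.46 in 1-2 KO, and PPHLN1 at -0.29 and -0.23. In the other direction, DNMT1 was at 0.33 and 0.27, DNMT3A at 0.44 and 0.31 and DNMT3B at 0.40 and 0.71. UHRF1 was at 0.29 and 0.47 and ATF7IP at 0.43 and 0.12, and all of these values passed the test. No relation between the levels of the listed cofactors and those of the zinc finger genes was tested.

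GC-rich members varied between libraries of the same line. Of the 240 members, 18 had a transcript GC content over 60%, 17 of them tested, and their proteins held a median of 6 fingers against 13 in the rest. In WT replicate 3, 16 of these 17 members were above the mean of the other 2 WT libraries, by a median of 0.43 on the log2 scale, while the other 195 tested members had a median of -0.06. In 1-2 KO replicate 1, 15 of the 17 were above, by a median of 0.49, against -0.03. In 1-1 KO replicate 1 the medians were -0.00 and -0.01. Over all 2323 tested genes with a GC content over 60%, the median deviation was 0.14 in both WT replicate 3 and 1-2 KO replicate 1, so these 2 libraries differed from the others of their line also outside the zinc finger genes.

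The calls of GC-rich members in 1-2 KO therefore rested in part on 1 library. Of the 17, 6 were higher in 1-2 KO than in WT and without 1-2 KO replicate 1 only 3 were. ZNF358 had 35, 20 and 31 counts in WT, 88, 68 and 81 in 1-1 KO and 122, 60 and 47 in 1-2 KO. It rose by 1.27 in 1-1 KO (SE 0.32, edgeR adjusted p = 0.00295) and by 1.24 in 1-2 KO (SE 0.32, edgeR adjusted p = 0.00442), the latter being 0.76 without 1-2 KO replicate 1 (edgeR adjusted p = 0.0173). ZNF865 (19q13.42), the member with the highest GC content, had 150, 144 and 179 counts in WT, 278, 302 and 237 in 1-1 KO and 464, 270 and 243 in 1-2 KO. Its change was 0.58 in 1-1 KO (SE 0.21, edgeR adjusted p = 0.0264), a call lost without WT replicate 1 or 2 or without 1-1 KO replicate 1 or 2 (values from 0.48 to 0.58), with DESeq2 (0.56) or relative to the 30 nearest genes that are not members (0.45), and 0.86 in 1-2 KO (SE 0.21, edgeR adjusted p = 0.00293), which was 0.55 without 1-2 KO replicate 1. ZNF787, at 46.7 ± 9.23 CPM in WT, passed the test in neither knockout (0.12 and 0.19) but did in both without WT replicate 3, at 0.27 and 0.32.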

How the data were processed

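mRNA of 9 Huh-7 libraries was measured, 3 for each line, and libraries were grouped by their sample titles. Alignment to hg38 was done by the authors with STAR and counting with featureCounts. The table they deposited holds raw counts per gene with no normalization. How reads with several matches and the strand were counted was not given in the sources used here. Symbols, positions and exon lengths came from GENCODE 44, another release than that of the authors, which matched 60463 of the 60664 gene identifiers, and chromosome bands were assigned by gene midpoint from hg38 band boundaries entered by hand.

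Counts were tested with edgeR 4.0.16 (quasi-likelihood test, TMM, all 9 libraries in 1 fit, filterByExpr with min.count of 10 and min.total.count of 15), with Benjamini-Hochberg adjustment over the 17207 tested genes and a threshold of 0.05. CPM are TMM-scaled, SE is the log2 fold change divided by the square root of F, and ± gives the SD. The procedure was tested on simulated data. Alternatives were DESeq2 1.42.0, other scaling, filters and thresholds, a replicate block, an offset from the 30 nearest genes that are not members, other limits for on and off, and leaving out each library. Promoters were aligned globally with scores of 2, -1 and -2 for match, mismatch and gap. Fingers were counted as C, 2 to 4 residues, C, 12 residues, H, 3 to 5 residues, H.

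The members and lists were chosen with earlier results of these data known. Named were, for each knockout, the 6 largest rises and the 6 largest falls among called members with at least 1 CPM in either line and no overlap with WT, the 5 members with the highest CPM per kilobase in WT, the 3 largest differences between the knockouts, any member switched between a knockout and WT, and TRIM28, SETDB1 and ZFP57. Exact permutation of 3 against 3 libraries cannot go below 0.100 and was not used. 1 marker gene of the list is not reported here.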

Additional observations from a re-analysis of the deposited data

Results flagged for a closer look

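The following results were singled out because the 2 knockouts differed from each other in the direct test of 1-2 KO against 1-1 KO (edgeR adjusted p under 0.05 over all tested genes, 3 libraries each). Over the tested members, 113 were lower and 16 higher in 1-2 KO than in 1-1 KO. Of the 741 other tested protein-coding genes of chromosome 19, 340 were lower and 141 higher, so the excess of lower genes was not confined to the members. Of the members called higher than WT in 1-1 KO and lower than WT in 1-2 KO, ZNF69 differed by -1.69 on the log2 scale, ZNF563 by -1.67, ZNF77 by -0.88, ZNF544 by -0.83, ZNF614 by -0.55 and ZNF274 by -0.40. No member went the opposite way, lower than WT in 1-1 KO and higher in 1-2 KO, by the same 2 calls. Groups of 3 libraries are too small for a test of single outlying libraries.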

How the results depend on the processing

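Of 352 recomputed counts of members and summed levels, 336 kept their value within the limits set and 16 moved. Taken relative to the 30 nearest other genes of chromosome 19, the members higher and lower than WT numbered 92 and 25 in 1-1 KO and 39 and 34 in 1-2 KO, and 27 were higher in 1-2 KO than in 1-1 KO. Of the 741 other tested protein-coding genes of chromosome 19, 195 were higher and 237 lower in 1-1 KO under the same offset, and 188 and 217 in 1-2 KO. Between the knockouts, 218 of them were higher in 1-2 KO. By construction this offset removes any change that a member shares with its neighbours. With at least 10 counts required in every library, 6 members were lower in 1-1 KO. Fewer genes were then tested, and ZNF546, which still was, missed the threshold at -0.51 (edgeR adjusted p = 0.0531). With a threshold of 0.01, 36 members were higher in 1-2 KO. The 1 member switched on between the knockouts fell to 0 under each of the 3 other limits for on and off, and the members switched off ranged from 0 to 1 when single libraries were left out. Scaled by library size alone, the ratio to WT over all members was 1.29 in 1-1 KO and 1.15 in 1-2 KO, and in 1-2 KO it was 1.22 in 19q13.12 and 1.14 in 19q13.31. Leaving out 1 library at a time gave 131 to 145 members higher and 8 to 10 lower in 1-1 KO, 52 to 61 higher and 13 to 18 lower in 1-2 KO, and from 101 to 123 lower between the knockouts. DESeq2 called 119 and 10 members in 1-1 KO and 47 and 13 in 1-2 KO.

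Of 2355 recomputed values of named genes, 2241 kept their call, 88 lost it, 22 gained it and 4 changed sign without being called in both fits. These 4 were all under the offset from neighbouring genes. ZNF146, not called in 1-2 KO in the main fit, was -0.13 there and passed (edgeR adjusted p = 0.00579). ZNF317 was -0.03 in 1-1 KO and -0.10 in 1-2 KO, and ZNF91 was -0.01 in 1-1 KO. Their calls were lost (edgeR adjusted p = 0.635, 0.167 and 0.855). Libraries with the same replicate number did not deviate together (correlations from -0.353 to 0.182), so the numbers do not pair the libraries. With a replicate block, 140 members were higher and 9 lower in 1-1 KO, 58 higher and 15 lower in 1-2 KO, and 110 lower and 14 higher between the knockouts. Each knockout is 1 line, which limits every comparison here to these lines, and members with few counts, such as ZNF676, could change state by counting error alone.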
